A study of Mus musculus with 28 samples.

Results

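p53 and 9 of its target genes were followed across mouse plasma cell tumors and normal B cells measured on Illumina expression arrays. The 10 listed genes were Trp53, which encodes p53, and Mdm2, Cdkn1a, Ccng1, Bbc3, Phlda3, Trp53inp1, Zmat3, Sesn2 and Ei24. All probes annotated to these symbols were taken, 22 of the 45281 probes of the array, and they belonged to 9 of the 10 genes. Trp53 itself is not analysed here, so every value below is for a target gene and none is a measure of p53. The 14 adoptive-transfer tumors were sampled from oil granuloma at an age of 105 to 158 days, the 11 spontaneous tumors from lymph node at 40 to 162 days, and the 3 normal samples were splenic B cells of BALB/c mice aged 90 days. All tumors were of the strain C.iMyc/IL-6, with BALB/c as its background, which joins an inserted Myc gene with an IL-6 transgene, and the adoptive-transfer tumors grew from premalignant B cells that had been transferred. Tumor RNA came from whole tumors, so it includes RNA of the host cells in them. Neither the Trp53 genotype nor whether each sample is a separate animal is given in the labels, and the p-values therefore measure only the spread between these samples, which may be technical.

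p53 is a transcription factor that is kept low in unstressed cells by the ubiquitin ligase Mdm2 and accumulates after DNA damage or oncogene activation, Myc included. Its targets stop the cell cycle (Cdkn1a, which encodes the cyclin-dependent kinase inhibitor p21), start apoptosis (Bbc3, which encodes Puma) or feed back on p53 itself (Mdm2 and Ccng1, which encodes cyclin G1). In Myc-driven B cell lymphomas of mice, loss of this pathway is a known way for tumor cells to escape the death that Myc provokes.

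The stretches just upstream of 4 of these genes are shown because they differ in how close they come to the p53 consensus response element, a run of 20 bases made of a pair of 10-base half-sites without a spacer, which reads the same on both strands. Each window runs from 250 bases before the transcription start to 50 bases after it, in RefSeq's GRCm38.p6 tables, on the strand of the gene, and capitals mark the stretch nearest to that consensus. Cdkn1a (chr17:29090729-29091028, plus strand) and Ccng1 (chr11:40755237-40755536, minus strand) each hold a stretch with 1 mismatch, at -51 to -32 and at -195 to -176 from the start. Bbc3 (chr7:16309333-16309632, plus strand) holds one with 3 mismatches at -97 to -78, and the closest stretch of Mdm2 (chr10:117710709-117711008, minus strand) has 5 mismatches. RefSeq lists further starts for Cdkn1a and Bbc3, and only the window nearest to the consensus is shown, since the other Cdkn1a window has 5 mismatches and the other Bbc3 windows have 5 and 6.
Cdkn1a: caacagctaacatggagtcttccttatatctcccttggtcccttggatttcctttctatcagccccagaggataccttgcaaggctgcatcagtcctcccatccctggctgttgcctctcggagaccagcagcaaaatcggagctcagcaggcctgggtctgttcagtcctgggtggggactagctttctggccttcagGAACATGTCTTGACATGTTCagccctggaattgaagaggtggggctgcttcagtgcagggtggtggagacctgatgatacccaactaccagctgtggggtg
Ccng1: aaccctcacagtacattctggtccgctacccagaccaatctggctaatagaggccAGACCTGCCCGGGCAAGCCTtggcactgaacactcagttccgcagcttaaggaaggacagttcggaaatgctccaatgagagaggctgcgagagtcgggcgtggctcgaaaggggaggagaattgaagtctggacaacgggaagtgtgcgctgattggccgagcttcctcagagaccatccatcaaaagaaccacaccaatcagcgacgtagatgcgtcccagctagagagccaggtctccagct
Bbc3: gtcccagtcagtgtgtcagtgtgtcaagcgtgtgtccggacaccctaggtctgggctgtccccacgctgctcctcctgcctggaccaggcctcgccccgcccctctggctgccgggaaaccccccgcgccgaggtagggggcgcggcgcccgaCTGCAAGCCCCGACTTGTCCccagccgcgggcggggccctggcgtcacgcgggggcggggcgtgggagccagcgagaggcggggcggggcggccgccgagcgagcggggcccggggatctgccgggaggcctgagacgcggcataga
Mdm2: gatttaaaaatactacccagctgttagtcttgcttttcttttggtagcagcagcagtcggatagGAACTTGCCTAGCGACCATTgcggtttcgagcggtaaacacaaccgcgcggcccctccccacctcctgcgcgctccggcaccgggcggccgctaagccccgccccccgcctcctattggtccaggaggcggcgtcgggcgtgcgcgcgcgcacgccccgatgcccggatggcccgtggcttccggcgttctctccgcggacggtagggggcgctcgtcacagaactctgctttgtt
Counted per window, not per gene, 0.0883% of 32851 mouse promoter windows of this length hold a stretch with at most 1 mismatch, 6.29% one with at most 3 and 76.6% one with at most 5. The Cdkn1a stretch also holds CATG at the centre of both half-sites, with 6 bases between the copies, a motif that reads the same on both strands, overlaps the consensus and occurs in 0.712% of all windows. The windows of Phlda3, Sesn2 and Ei24 came no closer than 5 mismatches. These matches describe letters only, and response elements in introns or farther upstream, where those of Mdm2 are known to lie, fall outside the windows.

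The arrays detected 11544 to 16827 probes in adoptive-transfer tumors, 14472 to 16756 in spontaneous tumors and 15633 to 16866 in normal B cells, with the fewest in adoptive-transfer tumors 1 and 5. All 9 measured genes passed the filter on dim probes (detected on 3 arrays or more, at a detection p under 0.05), as did 11804 genes in all, and 20 of the 22 probes passed it too. Plasma cell markers (10 genes) averaged 7.53 to 9.81 in adoptive-transfer tumors, 8.92 to 10.1 in spontaneous tumors and 7.52 to 7.65 in normal B cells on the log2 scale. Mature B cell markers (7 genes measured) averaged 5.55 to 6.97, 5.60 to 6.10 and 10.5 to 10.7 in the same order of groups, so the tumors and the normal cells also differ in the stage of B cell they contain. Fibroblast markers (9 genes measured) averaged 5.60 to 9.03 in adoptive-transfer tumors, 6.60 to 8.32 in spontaneous tumors and 4.79 to 4.91 in normal B cells, where 7 of the 9 were detected in no sample. Endothelium markers (10 genes) averaged 5.29 to 8.76 in adoptive-transfer tumors, 7.33 to 7.88 in the spontaneous kind and 5.18 to 5.45 in normal B cells, where 5 of the 10 were detected in no sample. The part of host cells in the differences below was not tested. In whole tumors, fewer cells of a type and less RNA per cell cannot be told apart. Xist was detected in 14 of 14 adoptive-transfer tumors, 6 of 11 spontaneous tumors and 0 of 3 normal samples, while Eif2s3y, on the Y chromosome, was detected in 0 of 14, 8 of 11 and 3 of 3. Sex and the comparison of adoptive-transfer tumors with normal B cells therefore cannot be told apart, while spontaneous tumors were mixed. Strain, tissue and the use of whole tumors coincide with both comparisons against normal B cells and cannot be told apart from them. The same holds for age in the adoptive-transfer kind.

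Against normal B cells, 6 of the 9 genes were higher in adoptive-transfer tumors, and the same 6 were higher in the spontaneous kind: Cdkn1a, Bbc3, Phlda3, Trp53inp1, Zmat3 and Ccng1. No member was called lower in either tumor kind, where called means an adjusted p under 0.05 in the limma fit over all genes. Over all 11804 genes the same fit called 19.8% higher and 16.7% lower for adoptive-transfer tumors, and 18.5% higher and 17.9% lower for spontaneous tumors. Of the 20 detected probes, 13 were called higher in adoptive-transfer tumors, where 15.9% of all probes were, and 12 in spontaneous tumors, where 15.3% were. The median log2 fold change of the 9 genes was 2.01 for adoptive-transfer tumors and 1.93 for spontaneous tumors, beside 0.10 and 0.08 for all genes, and both medians were the same with Cdkn1a and Phlda3 set at their lower bounds. Mdm2, Sesn2 and Ei24 were not called in either kind. Both comparisons share the 3 normal samples.

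**Figure D1:**
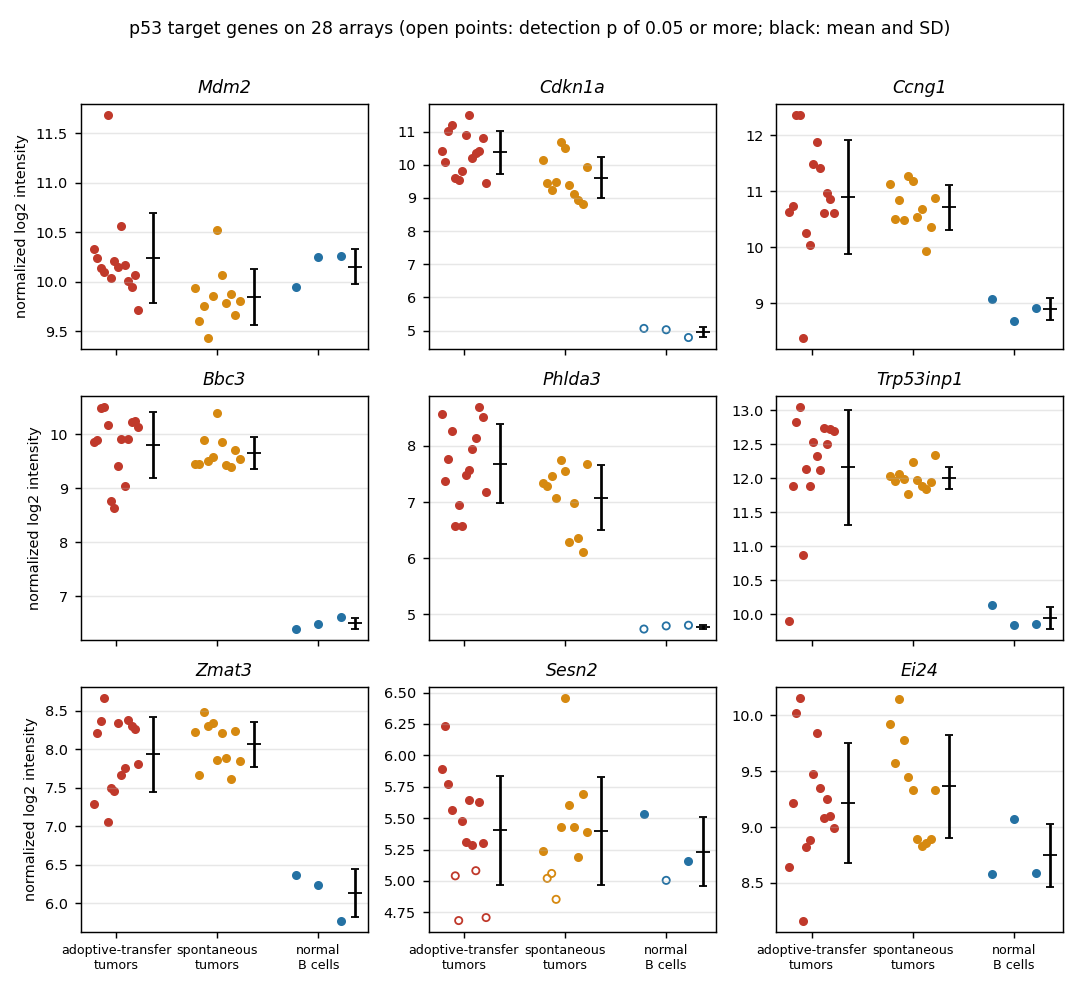
Normalized log2 intensity of the brightest probe of each of 9 p53 target genes, 1 point per array, in adoptive-transfer tumors (n = 14), spontaneous tumors (n = 11) and normal B cells (n = 3), with the mean and SD in black. Cdkn1a, Bbc3, Phlda3 and Zmat3 lie above the normal samples in all 25 tumors, while Mdm2, Sesn2 and Ei24 overlap with them.

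Cdkn1a (ILMN_2634083), the cell cycle inhibitor, had the largest difference of the 9 genes. Its log2 intensity ran from 9.46 through a median of 10.37 to 11.49 in adoptive-transfer tumors and from 8.82 through 9.43 to 10.67 in spontaneous tumors, against 5.07, 5.03 and 4.79 in the 3 normal samples. All 25 tumors lay above all normal samples, and no normal sample had a detected signal. On the scanner's scale, before normalization, the probe read 541.4 to 3049 units in adoptive-transfer tumors, 518.4 to 1541 in spontaneous tumors and 134.3 to 161.3 in normal B cells. Because the normal samples were not above background, the fold on this background-corrected scale is a lower bound, at least 38.1-fold in adoptive-transfer tumors (adjusted p = 2.39e-12) and at least 22.4-fold in spontaneous tumors (adjusted p = 1.06e-10). This bound sets the mean of the tumors against the lowest signal that still counted as detected on each normal array. The other 2 Cdkn1a probes were also called higher in both kinds. One had log2 fold changes of 3.42 ± 0.39 (SE) in adoptive-transfer tumors and 2.92 ± 0.40 in spontaneous ones. It was detected in only 1 of 3 normal samples, whose mean of 5.145 lay near background, so the size of these values is uncertain. The other, not detected in normal B cells, was at least 5.94-fold and at least 3.37-fold higher in the same order.

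Ccng1 (ILMN_2500276), whose product binds a phosphatase that acts on Mdm2, was detected in every sample. Its log2 intensity ran from 8.39 through 10.80 to 12.36 in adoptive-transfer tumors and from 9.93 through 10.69 to 11.28 in spontaneous tumors, against 9.07, 8.69 and 8.92 in normal B cells. Adoptive-transfer tumor 5 held the lowest value and was the one tumor within or below the normal range, since the next lowest was at 10.05. The log2 fold change was 2.01 ± 0.47 in adoptive-transfer tumors (adjusted p = 0.00118) and 1.82 ± 0.48 in spontaneous tumors (adjusted p = 0.00361), and all 3 Ccng1 probes were called higher in both.

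Mdm2 (ILMN_1250774), the gene of the ligase that degrades p53, was not called in either kind. Its log2 intensity ran from 9.72 through 10.15 to 11.68 in adoptive-transfer tumors and from 9.44 through 9.81 to 10.52 in spontaneous tumors, against 9.95, 10.25 and 10.26 in normal B cells, and the groups overlapped. The log2 fold change was 0.09 ± 0.24 in adoptive-transfer tumors (adjusted p = 0.826) and -0.31 ± 0.25 in spontaneous tumors (adjusted p = 0.366). The second detected Mdm2 probe gave 0.09 ± 0.26 and -0.17 ± 0.27, and the third was detected on no array. The sign in adoptive-transfer tumors depends on the scaling, with -0.20 under median scaling, and with array weights the value in spontaneous tumors was -0.32 with an adjusted p of 0.0127.

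Bbc3 (ILMN_2920736), whose product binds and blocks survival proteins of the Bcl-2 family, ran from 8.64 through 9.91 to 10.51 in adoptive-transfer tumors and from 9.39 through 9.54 to 10.39 in spontaneous tumors, against 6.40, 6.48 and 6.61 in normal B cells, with no overlap. Its log2 fold change was 3.31 ± 0.30 in adoptive-transfer tumors (adjusted p = 7.09e-10) and 3.16 ± 0.31 in spontaneous tumors (adjusted p = 2.77e-09), which is 9.89-fold and 8.92-fold. That call rests on 1 of 3 probes. The other 2 Bbc3 probes were dim, detected on 25 and 12 of 28 arrays, and neither was called. The first had log2 fold changes of 0.35 in adoptive-transfer tumors and 0.25 in spontaneous ones, and the second was detected in no normal sample. Averaging the probes lowered the Bbc3 value to 1.32 in adoptive-transfer tumors and 1.22 in spontaneous ones, still called.

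Phlda3, which encodes a repressor of the survival kinase Akt, ran from 6.58 through 7.67 to 8.70 in adoptive-transfer tumors and from 6.11 through 7.28 to 7.75 in spontaneous tumors, against 4.73, 4.79 and 4.80 in normal B cells. As with Cdkn1a, the normal samples were not above background, and the fold was at least 5.90 in adoptive-transfer tumors (adjusted p = 6.71e-07) and at least 3.87 in spontaneous tumors (adjusted p = 3.01e-05). Its second probe was called higher in both kinds too. Trp53inp1, a stress-induced partner of p53 in cell death, ran from 9.90 through 12.42 to 13.05 in adoptive-transfer tumors and from 11.77 through 11.97 to 12.34 in spontaneous tumors, against 10.14, 9.85 and 9.86 in normal B cells. Its lowest values were those of adoptive-transfer tumors 1 and 5, at 9.90 and 10.87, and the first of these lay within the normal range. The log2 fold change was 2.21 ± 0.38 in adoptive-transfer tumors (adjusted p = 3.36e-05) and 2.05 ± 0.39 in spontaneous tumors (adjusted p = 1.17e-04), with both probes called higher.

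Zmat3, an RNA-binding protein of the p53 response, ran from 7.06 through 8.01 to 8.66 in adoptive-transfer tumors and from 7.61 through 8.20 to 8.47 in spontaneous tumors, against 6.37, 6.24 and 5.77 in normal B cells. The groups did not overlap, and the log2 fold change was 1.80 ± 0.26 in adoptive-transfer tumors (adjusted p = 2.47e-06) and 1.93 ± 0.27 in spontaneous tumors (adjusted p = 1.25e-06). Ei24, a protein of the endoplasmic reticulum, averaged 9.21 ± 0.54 in adoptive-transfer tumors, 9.36 ± 0.46 in spontaneous tumors and 8.75 ± 0.28 in normal B cells (SD), and its log2 fold changes of 0.47 ± 0.31 and 0.61 ± 0.31 (SE) were not called (adjusted p = 0.255 and 0.131). Its second probe was called in adoptive-transfer tumors, at 0.66 ± 0.25 (adjusted p = 0.0437), and not in spontaneous tumors, at 0.64 ± 0.26 (adjusted p = 0.0594), so the Ei24 result depends on the probe. Sesn2, a stress-induced inhibitor of growth signalling through mTORC1, was near background throughout, detected in 10 of 14 adoptive-transfer tumors, 8 of 11 spontaneous tumors and 2 of 3 normal samples, with log2 fold changes of 0.17 ± 0.27 and 0.16 ± 0.27.

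**Figure D2:**
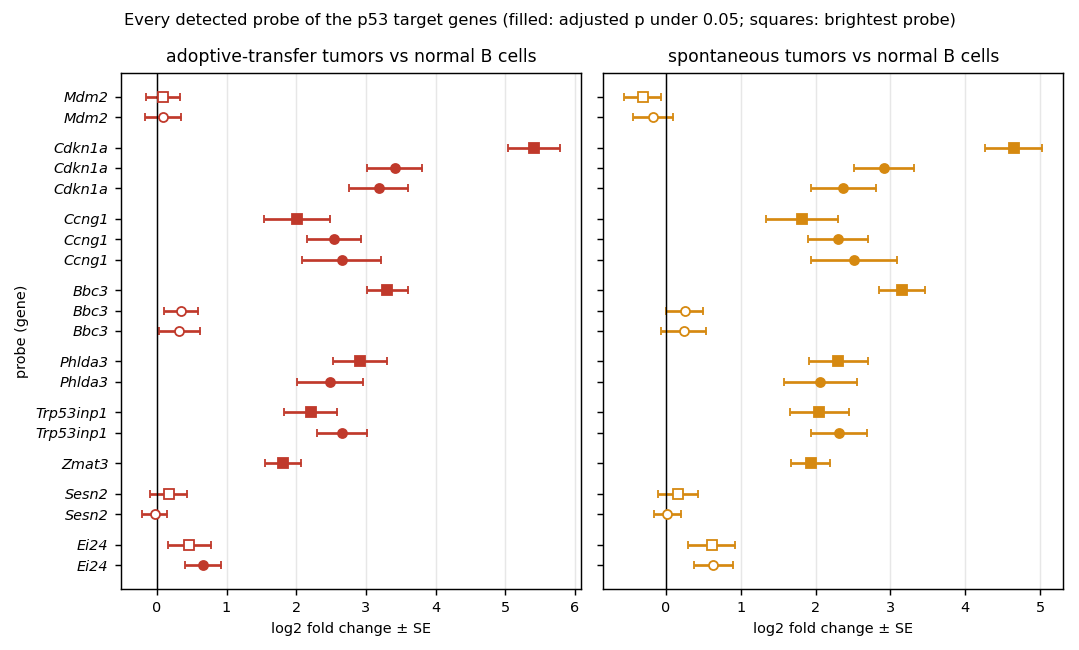
Log2 fold change with its SE for each of the 20 detected probes, for adoptive-transfer tumors (left) and spontaneous tumors (right) against normal B cells, where filled symbols have an adjusted p under 0.05 and squares are the brightest probe of a gene. Fitted values of 2 Cdkn1a probes, both Phlda3 probes and 1 Bbc3 probe rest on normal samples not above background. The probes of Cdkn1a, Ccng1, Phlda3 and Trp53inp1 are all filled, and of the Bbc3 probes only the brightest is.

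Without any overlap between the arrays of the groups, 4 genes (Cdkn1a, Bbc3, Phlda3 and Zmat3) were higher in adoptive-transfer tumors, where 9.74% of all genes were, and 6 genes were higher in spontaneous tumors, where 20.2% of all genes were. An exact two-sided permutation test over samples gave 0.00294 for those 4 genes in adoptive-transfer tumors, the smallest p this design allows, 0.00588 for Trp53inp1 and 0.0118 for Ccng1. In spontaneous tumors it gave 0.00549 for each of the 6 called genes, again the smallest possible, and 0.0275 for Ei24. Groups without overlap always give the smallest possible p. For the genes without overlap the test therefore restates that lack of overlap and adds nothing to it. The sizes, but not the calls, depended on background correction. In the authors' deposited log2 table the Cdkn1a difference was 3.39 in adoptive-transfer tumors and the Phlda3 difference was 1.31, both against normal samples not above background, so the bounds given above hold for the background-corrected scale and not for that table. Under median scaling in place of quantile normalization 33.3% of the genes called in adoptive-transfer tumors and 32.2% of those called in spontaneous tumors were higher, beside 54.3% and 50.8% as reported, and the median of all genes moved to -0.08 and -0.07. The 6 genes stayed called higher in both kinds under that scaling.

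Between the tumor kinds no member was called, where 2.73% of all genes were called in either direction. Cdkn1a came closest, at 10.38 ± 0.64 in adoptive-transfer tumors and 9.61 ± 0.62 in spontaneous ones (SD), a log2 difference of 0.77 ± 0.24 (SE, adjusted p = 0.0727). Phlda3 differed by 0.61 ± 0.24 (adjusted p = 0.189) and Mdm2 by 0.39 ± 0.15 (adjusted p = 0.171), both with the larger value in adoptive-transfer tumors, and the other 6 genes by -0.15 to 0.19. Every gene overlapped between the kinds. Taken 1 gene at a time, a permutation test over samples gave 0.0071 for Cdkn1a, 0.0323 for Phlda3 and 0.00514 for Mdm2, before any adjustment over genes. This test was run for the members only, so the share of all genes with such p-values is not known. The Cdkn1a difference was called without adoptive-transfer tumor 5 (0.83, adjusted p = 0.0387) or 14 (0.84, adjusted p = 0.0466), and without spontaneous tumor 5 (0.87, adjusted p = 0.0423) or 6 (0.86, adjusted p = 0.0479). Tumor kind coincides with the tissue sampled, and the 2 cannot be told apart. Sex differed too, with Eif2s3y detected in 0 of 14 adoptive-transfer and 8 of 11 spontaneous tumors, and its part was not tested. Exocrine pancreas markers averaged 4.82 to 8.89 over the adoptive-transfer tumors and 4.81 to 14.5 over the spontaneous ones, and their part in these differences was not tested.

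The other genes of the pathway were called in both directions. Of 27 measured further p53 target genes, 9 (33.3%) were called higher and 6 (22.2%) lower in adoptive-transfer tumors (median log2 fold change 0.10), beside 19.8% and 16.7% of all genes. In spontaneous tumors 3 (11.1%) were called higher and 7 (25.9%) lower (median -0.02), beside 18.5% and 17.9%. The highest in adoptive-transfer tumors were Rps27l, a ribosomal protein-like gene that p53 induces, at 2.70 ± 0.39, the mTORC1 inhibitor Ddit4 at 2.03 ± 0.62 and Dcxr, a carbonyl reductase, at 1.32 ± 0.33. In spontaneous tumors they were Rps27l at 2.69 ± 0.40, the death receptor gene Tnfrsf10b at 1.06 ± 0.25 and Aen, an apoptosis-enhancing nuclease, which was not detected in normal B cells and was at least 1.48-fold higher. The lowest in both kinds were the epoxide hydrolase Ephx1, at -3.60 ± 0.49 in adoptive-transfer tumors and -4.05 ± 0.50 in spontaneous ones, and the growth arrest gene Gadd45a, at -2.56 ± 0.60 and -3.13 ± 0.61. Next came Rrm2b, a ribonucleotide reductase subunit for DNA repair, at -2.13 ± 0.21 in adoptive-transfer tumors, and Sesn1, the relative of Sesn2, at -2.42 ± 0.61 in spontaneous tumors.

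Among 25 measured regulators of p53, adoptive-transfer tumors had 5 (20%) called higher and 7 (28%) called lower, and spontaneous tumors had 4 (16%) called higher and 9 (36%) called lower, with medians of -0.03 and -0.06. The shares called higher lie near those of all genes, 19.8% and 18.5%, while the shares called lower lie above theirs, 16.7% and 17.9%. Atm, the kinase that activates p53 after double-strand breaks, was the lowest in both, at -2.19 ± 0.43 in adoptive-transfer tumors (adjusted p = 1.76e-04) and -1.96 ± 0.44 in spontaneous tumors (adjusted p = 8.03e-04). Sirt1, a deacetylase of p53, was at -1.20 ± 0.30 and Ppp1r13b, which encodes the p53 cofactor ASPP1, at -1.20 ± 0.25 in adoptive-transfer tumors. In spontaneous tumors Ppp1r13b was at -1.08 ± 0.25 and the acetyltransferase gene Ep300 at -1.03 ± 0.31. On the higher side stood the kinase genes Hipk2 (0.87 ± 0.30) and Chek2 (0.85 ± 0.34) and the deubiquitinase gene Usp10 (0.84 ± 0.26) in adoptive-transfer tumors. In spontaneous tumors Hipk2 was at 1.08 ± 0.31 and Chek2 at 0.91 ± 0.34, and Cdkn2a, which encodes the Mdm2 inhibitor p19Arf and the kinase inhibitor p16, was at least 1.62-fold higher than in normal B cells, where it was not detected. In adoptive-transfer tumors Cdkn2a was not called (adjusted p = 0.0593).

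Cell cycle genes that p21 represses through the DREAM complex were mostly higher in the tumors. Of 14 measured, 12 (85.7%) were called higher and 0 lower in both tumor kinds, with medians of 2.15 in adoptive-transfer tumors and 2.43 in spontaneous ones. Over all genes 19.8% were called higher and 16.7% lower in adoptive-transfer tumors (median 0.10). In spontaneous tumors 18.5% were called higher and 17.9% lower (median 0.08). The highest were Birc5, which encodes survivin, at 3.37 ± 0.42 in adoptive-transfer tumors and 3.56 ± 0.43 in spontaneous ones, the mitotic kinase gene Cdk1 at 3.21 ± 0.37 and 3.55 ± 0.38, and Cdc20, an activator of the anaphase-promoting complex, at 3.21 ± 0.28 and 3.52 ± 0.29. In these lists no gene was called between the tumor kinds, where 2.73% of all genes were.

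**Figure D3:**
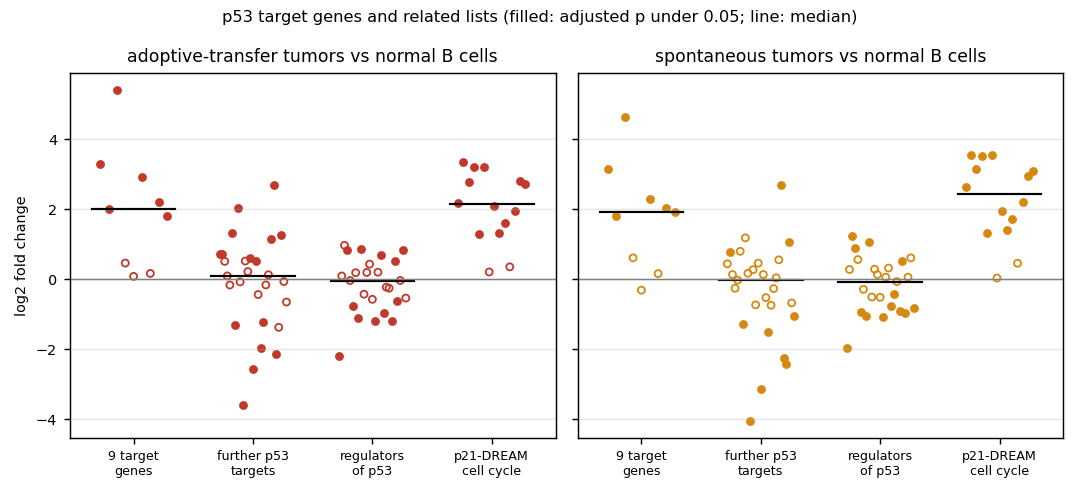
Log2 fold change of each measured gene against normal B cells in adoptive-transfer tumors (left) and spontaneous tumors (right), for the 9 target genes, 27 further p53 targets, 25 regulators of p53 and 14 cell cycle genes repressed through p21 and DREAM, where filled points have an adjusted p under 0.05 and the line is the median. The 9 target genes and the cell cycle genes have medians of 1.93 to 2.43, and the other lists have medians of -0.06 to 0.10.

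Whether the targets vary together from tumor to tumor was examined within each tumor kind, over 36 pairs of the 9 genes in each, with p-values adjusted over all 72 pairs. In 14 adoptive-transfer tumors 7 pairs were called, all positive and with r of at least 0.68, which 3.71% of all gene pairs reach. In 11 spontaneous tumors 3 pairs were called, all positive and with r of at least 0.80, which 0.426% of all gene pairs reach. An unadjusted permutation p under 0.05 was found for 12 and 7 of the 36 pairs, and the share of all gene pairs that reach it was not computed. The median r was 0.371 in adoptive-transfer tumors and 0.354 in spontaneous ones, beside medians of about 0 over all pairs of the 11804 genes. An r of at least 0.5 was reached by 13 of 36 pairs in adoptive-transfer tumors, where 10.9% of all gene pairs reach it, and by 8 of 36 in spontaneous tumors, where 8.1% do. The pairs share genes and the tumors share normalization, so they are not independent.

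**Figure D4:**
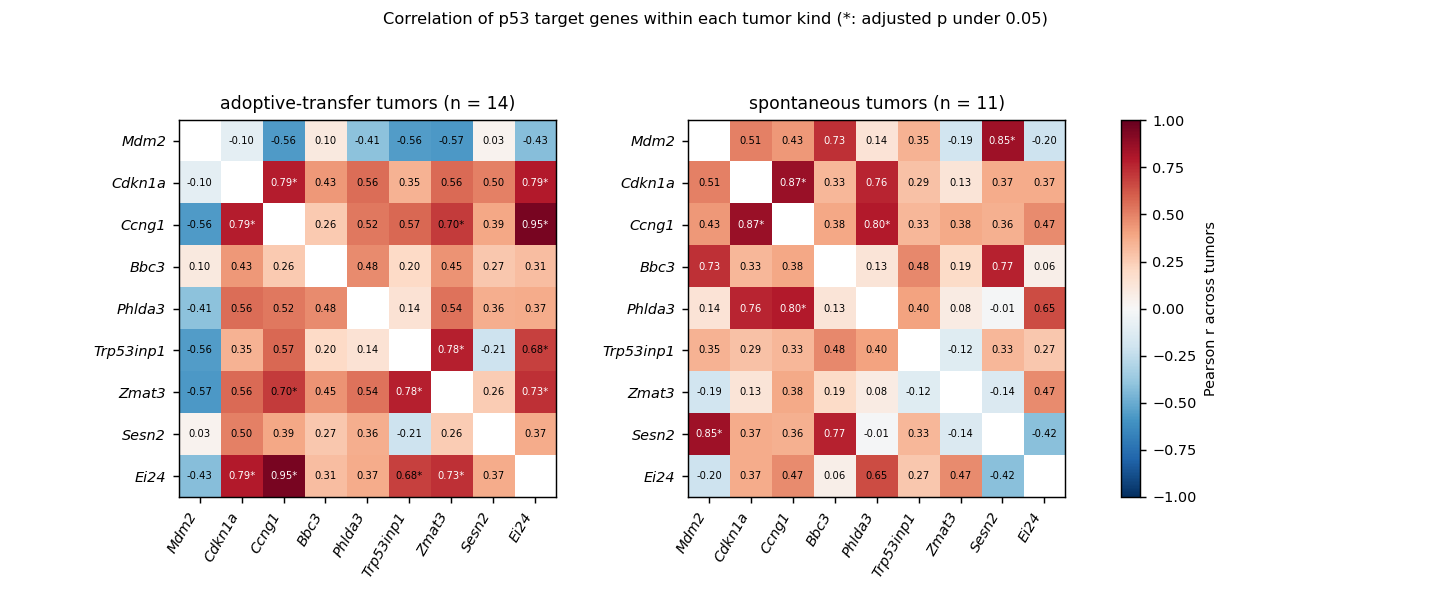
Pearson r of log2 intensity for each pair of the 9 target genes across adoptive-transfer tumors (left, n = 14) and spontaneous tumors (right, n = 11), on a scale from -1 in blue to 1 in red, with an asterisk where the adjusted permutation p is under 0.05. Cdkn1a and Ccng1 carry an asterisk in both panels. The Mdm2 row is mostly blue on the left, where none of its pairs was called and signs depend on the scaling, and mostly red on the right.

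Cdkn1a and Ccng1 were the one pair called in both tumor kinds. In adoptive-transfer tumors r was 0.79 and rho 0.85 (adjusted permutation p = 0.00918 and 0.00696), and in spontaneous tumors r was 0.87 and rho 0.82 (adjusted permutation p = 0.00918 and 0.0358). Without the 2 tumors farthest from the median of Cdkn1a, r was 0.84 in adoptive-transfer tumors and 0.77 in spontaneous ones. No p was computed without those 2 tumors. The pair stayed called by Spearman's rho and under the other scalings, marker adjustments and single tumors left out, with r from 0.75 to 0.88 in adoptive-transfer tumors and from 0.83 to 0.91 in the spontaneous kind. Ranked over all 11803 other genes by the mean of r in the 2 tumor kinds, Ccng1 was number 1 for Cdkn1a at 0.827 and Phlda3 number 13 at 0.662. The 5 genes outside the list that came closest to Cdkn1a were Nus1 (mean r 0.733), Miga1 (0.729), Tlcd4 (0.728), Masp2 (0.712) and Dhrs11 (0.706).

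**Figure D5:**
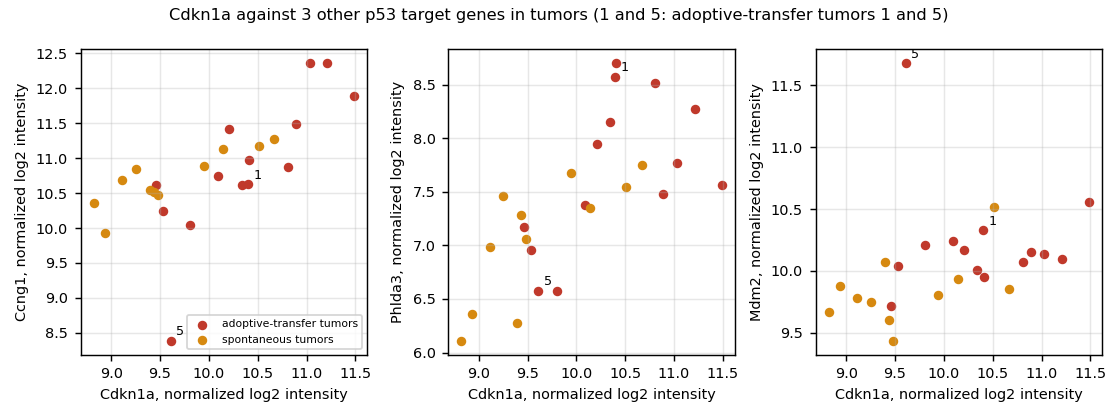
Normalized log2 intensity of Cdkn1a (x axis) against Ccng1, Phlda3 and Mdm2 (y axes), 1 point per tumor, for adoptive-transfer tumors (n = 14) and spontaneous tumors (n = 11). Ccng1 climbs with Cdkn1a in both kinds, and adoptive-transfer tumor 5 has the lowest Ccng1 and the highest Mdm2.

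Ei24 joined this pair in adoptive-transfer tumors, although its level there was not called against normal B cells. Its r was 0.95 with Ccng1 (rho 0.94, both adjusted permutation p = 7.2e-04) and 0.79 with Cdkn1a (rho 0.78, adjusted permutation p = 0.00994 and 0.0254). Without the 2 farthest tumors these were 0.93 and 0.81, and both pairs stayed called under all 22 alternatives. In spontaneous tumors the r of Ei24 was 0.47 with Ccng1 and 0.37 with Cdkn1a, not called, and the difference between the kinds was not tested.

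The other 4 called pairs in adoptive-transfer tumors were Zmat3 with Trp53inp1 (r 0.78, adjusted permutation p = 0.00828), Zmat3 with Ei24 (r 0.73, adjusted permutation p = 0.0307), Ccng1 with Zmat3 (r 0.70, adjusted permutation p = 0.0323) and Trp53inp1 with Ei24 (r 0.68, adjusted permutation p = 0.0498). None of these 4 stayed called without tumors 1 and 5, the arrays with the fewest detected probes, where their r ran from 0.51 to 0.71. None stayed called either in residuals after the plasma cell marker level, where r ran from 0.33 to 0.63. Under median scaling all 4 stayed called, with r from 0.73 to 0.92. Of 22 alternatives, 20 kept the call of Zmat3 with Trp53inp1 and 18 that of Zmat3 with Ei24. For Ccng1 with Zmat3 12 kept it, and for Trp53inp1 with Ei24 7 did. Without tumors 1 and 5, Bbc3 was called with Zmat3 (r 0.76, adjusted permutation p = 0.0477) and with Trp53inp1 (r 0.77, adjusted permutation p = 0.0418). Phlda3, in spontaneous tumors, had an r of 0.80 with Ccng1 (rho 0.84, adjusted permutation p = 0.0307 and 0.0323), which was 0.72 without the 2 farthest tumors, and the call was lost without tumor 5, 6 or 9 (adjusted permutation p from 0.0562 to 0.0740). With Cdkn1a its r there was 0.76, just short of a call (adjusted permutation p = 0.053).

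As reported, Mdm2 had no called pair in adoptive-transfer tumors and 1 in spontaneous ones. In adoptive-transfer tumors its r was -0.57 with Zmat3, -0.56 with Ccng1, -0.56 with Trp53inp1 and -0.10 with Cdkn1a, none called. Tumor 5 had the highest Mdm2, at 11.68. Without tumors 1 and 5 the r of Mdm2 was -0.17 with Zmat3, 0.35 with Ccng1, -0.39 with Trp53inp1 and 0.58 with Cdkn1a. Under median scaling these were 0.23, 0.003, 0.31 and 0.28, and none was called in either setting. The signs therefore depend on the scaling and, for Ccng1 and Cdkn1a, on leaving out those tumors. In residuals after the number of detected probes, Mdm2 with Phlda3 was called in adoptive-transfer tumors with an r of -0.64 (adjusted permutation p = 0.045), beside -0.41 as reported. In the same residuals Mdm2 with Bbc3 was called in spontaneous tumors with an r of 0.82 (adjusted permutation p = 0.0225), beside 0.73. In spontaneous tumors the r of Mdm2 was 0.85 with Sesn2 (rho 0.60, adjusted permutation p = 0.0323 and 0.211), and it was 0.31 without tumors 4 and 6, so the relation rests on those samples. It also rests on a dim Sesn2 probe, detected in 8 of 11 spontaneous tumors. Across these tumors its r with the other Sesn2 probe that passed the filter, detected in 4 of 11, was -0.55. The genes most like Mdm2 over both kinds were Tspyl2 (mean r 0.849), Sfi1 (0.821), Rdh12 (0.812), Dock2 (0.809) and Sin3b (0.808), and the nearest other target, Sesn2, ranked 914 of 11803.

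Adoptive-transfer tumor 5 also differed in its cell markers. It had the lowest plasma cell level of its group, at 7.53, and the highest mature B cell (6.97), T cell (7.84) and neutrophil (10.1) levels, together with the lowest Ccng1, Zmat3 and Ei24. Over 162 relations of the 9 genes to 8 marker lists and the number of detected probes, 2 had an adjusted permutation p under 0.05, both in adoptive-transfer tumors. These were Mdm2 with T cell markers (r 0.85, adjusted permutation p = 0.0162, rho 0.73, adjusted permutation p = 0.183, and r 0.58 without the 2 farthest tumors) and Zmat3 with mature B cell markers (r -0.73, adjusted permutation p = 0.0162, rho -0.74, adjusted permutation p = 0.183, and r -0.61 without the 2 farthest). Of the relations not called, Zmat3 with neutrophil markers came closest, in adoptive-transfer tumors (r -0.76, adjusted permutation p = 0.0524). There Phlda3 with neutrophil markers (r -0.73) and Ei24 with plasma cell markers (r 0.73) came next, both at an adjusted permutation p of 0.0752. The relation of Ccng1 to plasma cell markers, also not called, had an r of 0.77 (adjusted permutation p = 0.0828, rho 0.59, adjusted permutation p = 0.316), and 0.49 without the 2 farthest tumors.

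Within the 11 spontaneous tumors, whose ages spread most widely, no gene was called for a slope on age in the limma fit, while 1339 of 11804, or 11.3%, had an unadjusted p under 0.05. Of the 9 targets, Sesn2 had a slope of 0.68 ± 0.25 on the log2 scale per 100 days (adjusted p = 0.342) and Ei24 one of -0.64 ± 0.28 (adjusted p = 0.425). Cdkn1a had 0.53 ± 0.41 and Mdm2 0.28 ± 0.21 per 100 days, and neither was called.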

How the data were processed

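RNA from 28 mouse samples (14 adoptive-transfer tumors, 11 spontaneous tumors, 3 normal B cell samples) was labelled with the Ambion MessageAmp kit and read on Illumina arrays, per the labels' protocols. The authors deposited linear probe intensities without normalization or background subtraction, per the values, and a detection score per probe, per the file headers, that runs from 0 to 1 and was taken as 1 minus the detection p. The authors also deposited a log2 table with the same median, 7.15, in every array and the array ranks of the intensities, so its scale is log2, it is not centred on genes, and how it was background-corrected is not given in the sources used here. The submitters' processing notes name Partek.

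Intensities were background-corrected and quantile normalized with neqc (limma 3.58.1 in R 4.3.3, offset 16), which limits precision for dim probes. Each array's number of detected probes stands in for depth. Of 45281 probes, 34885 had 1 gene symbol in the platform annotation, 18 had several and 10378 none. The probe with the highest mean stood for a gene, and genes detected on 3 arrays or more, at a detection p under 0.05, were kept. 1 limma fit over 28 arrays, with a mean per group, gave all 3 comparisons, with Benjamini-Hochberg adjustment over 11804 genes, or over 22537 probes for single probes. Pairs were tested with 100000 permutations in Python 3.11.15. The fits and correlations were tested on simulated data. A fold against a group without detection is a lower bound, set against the lowest detected signal per array. Promoter windows are RefSeq's, and 8 of the 10 genes had one.

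The members and lists were chosen with earlier results of these data known. The text names all members and, from each other list, up to 3 highest and 3 lowest called genes per comparison, and for Cdkn1a and Mdm2 the 5 genes with the nearest pattern. Cdkn2a in adoptive-transfer tumors was added after its values were seen. Replicate numbers in the labels are names within a group and were not taken as pairs. Alternatives were the deposited table, no background correction, median scaling, another offset and filter, all probes, array weights, other spread models, 2 groups alone, a replicate block and leaving out arrays. The fibroblast marker level as a covariate between the tumor kinds, and the plasma cell residuals for pairs, were added after seeing the data.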

Additional observations from a re-analysis of the deposited data

How the results depend on the processing

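The 6 genes called higher in each tumor kind against normal B cells stayed called higher under every alternative run, and the number of members called was 6 or 7 in adoptive-transfer tumors, and 6 to 8 in the spontaneous kind. Leaving out 1 array at a time gave 3215 to 5009 genes called for the adoptive-transfer kind and 3276 to 4744 for the spontaneous kind. Array weights raised the calls to 7215 and 7161 genes, beside 4311 and 4301 as reported. Between the tumor kinds, 322 genes were called as reported, 140 under median scaling (32.9% of them higher, beside 50.3% as reported), 894 with array weights, 207 with only the 2 groups in the fit, 707 without adoptive-transfer tumors 1 and 5, and 170 to 565 with 1 array left out. With the fibroblast marker level as a covariate, 40.6% of the genes called were higher. Members called between the kinds were 3 with array weights (Cdkn1a, Phlda3 and Trp53inp1) and 2 without adoptive-transfer tumors 1 and 5 (Cdkn1a and Trp53inp1). With 1 array left out, 0 to 1 were called. In the permutation test 3 members had an unadjusted p under 0.05, and the share of all genes that reach it was not computed. In adoptive-transfer tumors the pairs called were 14 under median scaling, 14 in residuals after the number of detected probes, 3 in residuals after the plasma cell marker level, and 4 to 11 with 1 tumor left out, with 4 without tumor 4 or tumor 5 and 11 without tumor 1. In spontaneous tumors they were 7 in residuals after the number of detected probes, and 1 to 5 with 1 tumor left out, with 5 without tumor 3 and 1 without tumor 6. The cause of these shifts was not tested. Shares of all gene pairs were not computed under these alternatives, so the counts of pairs cannot be set beside them.

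Small differences turned their sign. Mdm2 in adoptive-transfer tumors against normal B cells was -0.20 under median scaling, -0.0474 with array weights, -0.0418 without tumors 1 and 5, and -0.0252 to 0.14 with 1 array left out. Sesn2 against normal B cells under median scaling was -0.055 in adoptive-transfer tumors and -0.0174 in spontaneous ones. Between the tumor kinds Sesn2 was -0.0023 in the deposited table, -0.00318 without background correction, -0.0376 under median scaling, -0.0223 as a mean of probes, -0.0532 with array weights, -0.00459 without tumors 1 and 5, and -0.0583 to 0.112 with 1 array left out. With array weights Zmat3 was 0.057 and Ei24 0.0794 between the kinds. With 1 tumor left out, the age slopes per 100 days ran from -0.148 to 0.38 for Phlda3, from -0.0929 to 0.383 for Bbc3 and from -0.0492 to 0.136 for Trp53inp1.

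With the replicate number as a block, the consensus correlation was 0.0122, and 4332, 4315 and 354 genes and 6, 6 and 0 members were called in adoptive-transfer tumors, in spontaneous tumors and between the kinds, so the block changed no call of a member. Dim probes, such as those of Sesn2 and 2 of Bbc3, limit what can be seen of a change.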
